A study of Mus musculus with 6 samples.

Results

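The genes described here lie side by side in the proximal part of mouse chromosome 12 and were chosen by their RNA level in 1 library of a mammary tumour. They are the protein-coding genes of the deposited table of 1 interval (GRCm38), the first starting at 3247428 (Rab10) and the last at 36157114 (Ankmy2), without Lamb1, Rrm2, Id2, Rsad2, Cmpk2, Twist1 and Rps7, which were left out by name. The rule gave 127 genes, called block genes here, out of 22046 protein-coding genes and 54532 genes in all. The interval was defined by the deviation of each library from the mean of all 6 libraries, which was low in PT replicate 1. That low level, its counts and its medians are therefore a description and carry no test.

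The study sequenced RNA of circulating tumour cells expanded from the blood of mice that carried the tumour 2208L (CTC, 3 libraries) and of cancer cells enriched out of dissociated primary tumours (PT, 3 libraries). 2208L is a transplantable mouse mammary tumour, grown here in Balb/c mice, and the labels give no treatment for any library. CTC and PT libraries with the same replicate number came from the same mouse. The labels mention propagation for CTC alone, so the handling of the cells and their source cannot be told apart. The sources used here do not state the age or sex of the mice, or how tumour cells were enriched.

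Mouse chromosomes carry the centromere at one end, and proximal means near that end. Genes in such a stretch are as a rule transcribed from their own promoters and do not serve a common pathway. The block held enzymes, transcription factors, trafficking proteins and signalling proteins with unrelated tasks. Stretches in which many neighbours move together are looked for in tumours because gain or loss of DNA and shared chromatin domains both act on neighbours. Neither DNA copies nor chromatin was measured here, and their part in the values was not tested.

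Library totals ranged from 23845953 to 27897320 counts, and 3 counts, taken as the floor, came to between 0.108 and 0.126 CPM (counts scaled to library size by the TMM method, which corrects for the make-up of each library). Luminal epithelial genes (Krt8, Krt18, Krt19, Epcam and Cdh1) summed to between 1971 and 4864 CPM per library, mostly from Krt8 and Krt18, and Epcam and Cdh1 were at 152.0 CPM or more in each. Krt19 had 0 counts in CTC replicate 3 and PT replicate 3. All 10 leukocyte markers together summed to at most 23.5 CPM, 6 endothelial markers to at most 2.02 CPM, and C1qa, Ly6g and Adgre1 had 0 counts. PT replicate 1, the library with the low block, stood apart in other genes too. The 5 basal epithelial genes summed to 6277 CPM there, mainly from the basal keratin gene Krt14. The sums were 190.1, 305.4 and 1403 CPM in CTC replicates 1, 2 and 3 and 403.4 and 936.2 CPM in PT replicates 2 and 3. Krt5 and Krt17 were also highest in PT replicate 1. Trp63 was not, at 60.3 CPM there, against 150.7 CPM in CTC replicate 3 and 93.7 CPM in PT replicate 3. Acta2 had at most 15 counts, in CTC replicate 1. The 10 fibroblast genes summed to 621.2 CPM in PT replicate 1, mainly from Col6a3, and to between 9.30 and 509.9 CPM in the other 5 libraries, while Lum was at 0 and Col1a1 reached at most 44 counts. Dcn, decorin, was also highest in PT replicate 1, at 43.97 CPM in PT replicate 1, against 0 to 33.2 CPM in the other 5 libraries, and Col3a1 was highest in CTC replicate 3, with 3184 counts, against 108 in PT replicate 1. In CTC replicate 3 the 5 adipocyte genes reached 349.2 CPM together, of which Fabp4 alone gave 346.6 CPM, with Adipoq and Lep at 0. No other library had more than 2.45 CPM over these 5 genes. The part of these cells or states in the block was not tested, and in bulk libraries fewer cells of a type and less RNA per cell cannot be told apart.

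Of the 127 block genes, 82 had enough counts for edgeR's expression filter and 45 did not. In PT replicate 1 the block genes deviated from the mean of all 6 libraries by a median of -0.90 on the log2 CPM scale, with quartiles of -1.18 and -0.53. The medians in the other libraries were 0.43, 0.13 and 0.26 in CTC replicates 1, 2 and 3 and 0.06 and 0.17 in PT replicates 2 and 3. Over all 12019 protein-coding genes tested, the medians of the 6 libraries lay between -0.02 and 0.04. PT replicate 1 was thus the single low library, and CTC replicate 1, from the same mouse, had the highest median. In CTC replicate 1 the median over the rest of chromosome 12 was also above the mean, at 0.26. Whole chromosomes other than 12 had medians from -0.40 to 0.38 in that library.

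**Figure D1:**
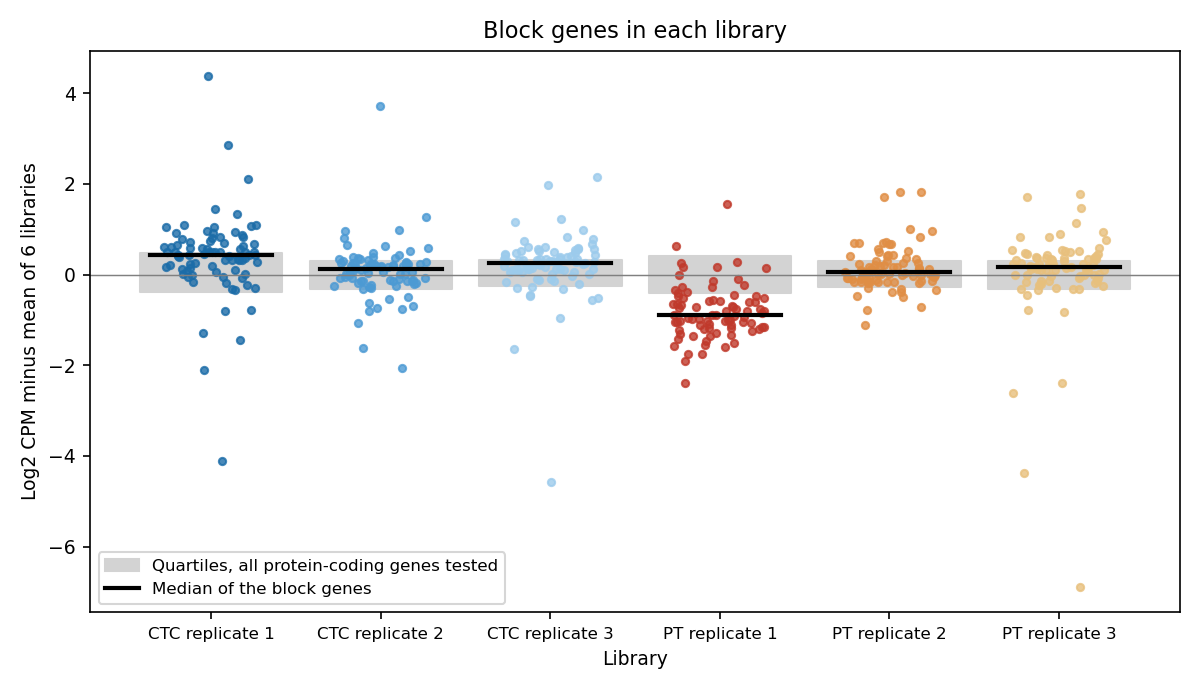
Deviation of the 82 block genes that passed the filter, as log2 CPM minus the mean of the 6 libraries, in each library (points), with their median (black line) and the quartiles of all 12019 protein-coding genes tested (grey). The median is -0.90 in PT replicate 1 and between 0.06 and 0.43 in the other 5 libraries.

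Of the 82 genes, 75 lay below the mean of 6 in PT replicate 1, 63 lay at least 0.5 below it and 59 had their lowest value of the 6 libraries there. Among all protein-coding genes tested, 20.1% lay at least 0.5 below the mean in that library and 22.6% had their lowest value there. No block gene had its highest value in PT replicate 1, where 21.1% of all protein-coding genes tested had theirs. CTC replicate 1 held the highest value for 36 of the 82 genes, where 25.2% of all protein-coding genes had theirs. The interval was chosen on these values, so nothing is read from the distance between the shares.

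Set against the mean of the other 5 libraries, the level in PT replicate 1 had a median of 42.6% over the 82 genes, with quartiles of 36.4% and 59.0%. It was under 75% for 74 genes and under 50% for 50 genes. Block genes that passed the filter together took 4226 CPM in PT replicate 1, against 9840, 7730 and 7894 CPM in CTC replicates 1, 2 and 3 and 7556 and 8002 CPM in PT replicates 2 and 3. As raw counts all 127 genes had 110324 in PT replicate 1, which is 0.403% of that library, and between 176067 and 277330 in the others (0.738% to 0.994%). The sum in PT replicate 1 thus lay under each of the other sums.

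The low level ran along the whole interval. In steps of 5 Mb from the proximal end, the medians in PT replicate 1 were -0.90, -0.90, -0.56, -0.98, -0.97, -1.03 and -0.66, over 19, 13, 12, 6, 5, 20 and 7 genes. The lowest step held 20 genes from Rnaseh1 to Atxn7l1, of which 18 had their lowest value in PT replicate 1. In the other 5 libraries the medians of these steps ranged from -0.19 to 1.05, the highest in CTC replicate 1 over the last 7 genes. In chromosome order, 16 expressed neighbours from Tmem18 to Twistnb, 8 from Asap2 to Grhl1 and 7 from Laptm4a to Gen1 all had their lowest value in PT replicate 1. Longer unbroken runs lay below the mean of 6 there, with 25 genes from Cenpo to Nbas, 23 from E2f6 to Eipr1 and 16 from Tmem18 to Twistnb.

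**Figure D2:**
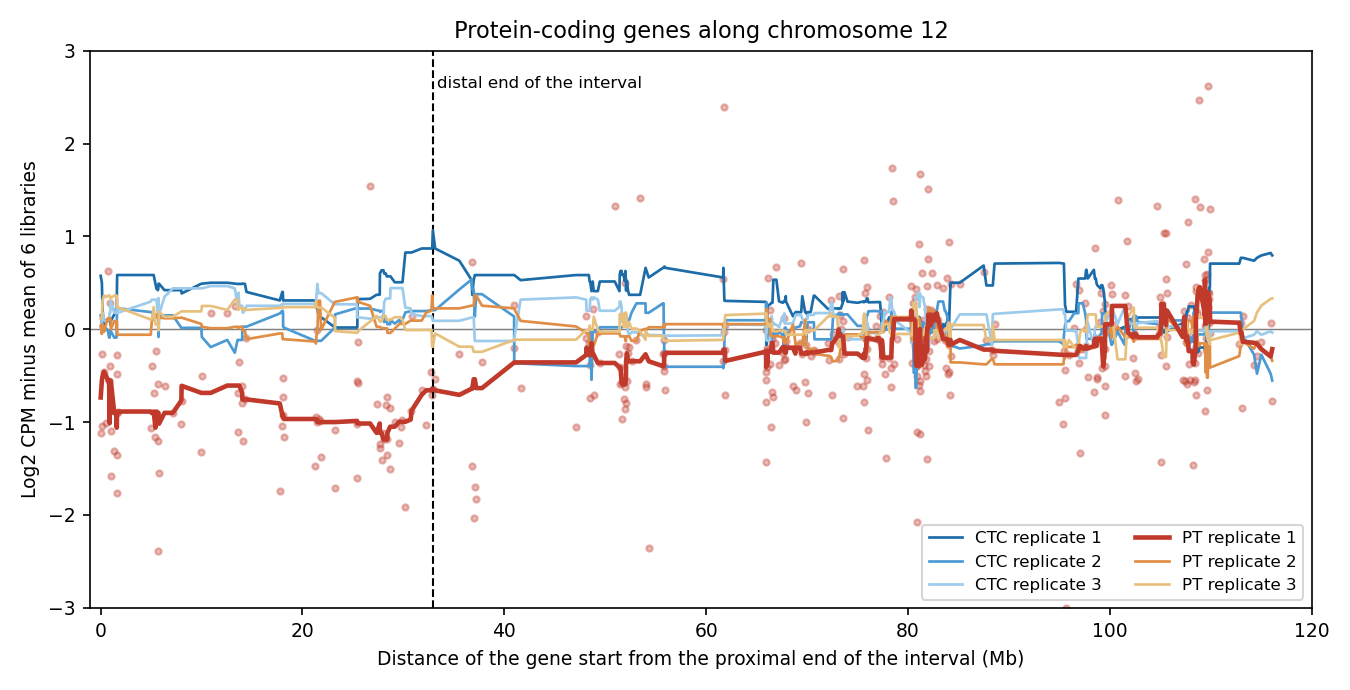
Running median over 11 protein-coding genes of log2 CPM minus the mean of 6 libraries, for each library along chromosome 12, against the distance of the gene start from the proximal end of the interval in Mb. Points are single genes in PT replicate 1, drawn at the edge where beyond 3; the dashed line is the distal end of the interval, and the PT replicate 1 line lies below the other 5 up to it.

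At the proximal end no expressed protein-coding gene lay before Rab10, so the rule had no outer neighbours there. The first genes inside were Rab10, Kif3c and Asxl2, with deviations in PT replicate 1 of -1.12, -0.27 and -1.04. At the distal end the last genes inside were Tspan13, Bzw2 and Ankmy2, at -0.47, -0.71 and -0.64. The first genes outside were Ispd, Etv1 and Arl4a, at -0.54, -0.27 and -1.47. The distal end was therefore not sharp: the 8 expressed genes in the next 5 Mb had a median of -1.0 in PT replicate 1. Only 4 of the 8 were lowest there, and Scin lay above the mean of 6, at 0.73. Of the 4 lowest there, Ifrd1, a transcriptional co-regulator, was at 47.2 CPM in PT replicate 1, against 163 to 541 CPM in the other 5 libraries. Another, the zinc finger gene Zfp277, was at 17.6 CPM in PT replicate 1, against 49.4 to 106 CPM in the other 5 libraries. Over the 322 protein-coding genes from there to the end of the chromosome the median in PT replicate 1 was -0.17, with 103 (32.0%) lowest in that library. The 11608 protein-coding genes of other chromosomes had a median of -0.01, with 22.0% lowest there, and whole chromosomes other than 12 had medians from -0.38 to 0.41 in PT replicate 1.

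Promoters of the block genes are shown for 4 genes picked after their values were seen: Rab10 from the proximal end, Ddx1 from the middle and Nampt from the distal end, which were all lowest in PT replicate 1, and Trib2, which was not. Each is 250 bases before to 50 after the gene's RefSeq start site (GRCm38.p6), read 5′ to 3′ on the gene's strand, with CCAAT and GGGCGG on either strand in capitals. Rab10 lies at chr12:3309920-3310219 on the minus strand, Ddx1 at chr12:13249125-13249424 on the minus strand, Nampt at chr12:32820085-32820384 on the plus strand and Trib2 at chr12:15816736-15817035 on the minus strand. The RefSeq start of Nampt lies 790 bases from the 5′ end of the gene in the deposited table, that of Trib2 137 bases and that of Ddx1 39 bases.
Rab10: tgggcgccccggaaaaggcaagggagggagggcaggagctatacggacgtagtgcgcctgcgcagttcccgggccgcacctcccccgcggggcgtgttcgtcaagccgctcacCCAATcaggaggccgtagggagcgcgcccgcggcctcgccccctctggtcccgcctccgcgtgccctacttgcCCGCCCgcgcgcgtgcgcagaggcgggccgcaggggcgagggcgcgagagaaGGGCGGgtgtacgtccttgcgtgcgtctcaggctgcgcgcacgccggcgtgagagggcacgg
Ddx1: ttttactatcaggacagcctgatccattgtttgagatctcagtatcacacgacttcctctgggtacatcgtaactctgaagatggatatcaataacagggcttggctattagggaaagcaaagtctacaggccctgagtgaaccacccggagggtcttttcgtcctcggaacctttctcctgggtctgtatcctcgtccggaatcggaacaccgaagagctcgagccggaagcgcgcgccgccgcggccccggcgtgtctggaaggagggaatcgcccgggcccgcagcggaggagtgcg
Nampt: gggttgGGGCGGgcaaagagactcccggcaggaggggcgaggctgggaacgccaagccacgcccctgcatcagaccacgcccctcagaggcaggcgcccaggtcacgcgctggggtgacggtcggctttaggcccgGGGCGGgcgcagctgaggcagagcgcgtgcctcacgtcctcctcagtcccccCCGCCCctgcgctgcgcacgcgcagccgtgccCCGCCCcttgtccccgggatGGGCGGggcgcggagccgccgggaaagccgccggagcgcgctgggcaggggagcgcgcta
Trib2: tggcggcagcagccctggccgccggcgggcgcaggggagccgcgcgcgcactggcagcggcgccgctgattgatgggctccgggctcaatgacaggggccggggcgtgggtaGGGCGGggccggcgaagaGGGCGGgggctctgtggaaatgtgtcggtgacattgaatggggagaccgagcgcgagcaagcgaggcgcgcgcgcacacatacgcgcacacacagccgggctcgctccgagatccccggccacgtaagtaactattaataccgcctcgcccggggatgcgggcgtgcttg

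These promoters were rich in C and G: Rab10 had 74.7% G or C and 43 CpG sites in 300 bases, Nampt had 76.3% and 36, Trib2 had 71.0% and 40, and Ddx1 had 57.0% and 24. Rab10 held 1 CCAAT and 2 GGGCGG, Nampt held 5 GGGCGG, Trib2 held 2 GGGCGG and Ddx1 held neither motif. RefSeq promoters were matched to 72 of the 82 genes. For a block gene with several, the promoter nearest the gene's 5′ end in the deposited table was used. For all tested genes the first listed promoter was used, so the shares compared below rest on differently chosen windows. GGGCGG, the core of the GC box that Sp and Klf factors bind, was in 70.8% of these and in 65.8% of the promoters of all tested protein-coding genes that matched (9472). CCAAT was in 36.1% and 39.4%, the E-box CACGTG in 8.33% and 10.2%, the TATA box TATAAA in 4.17% and 6.48%, and the cyclic AMP response element core TGACGTCA in 4.17% and 3.41%, each on either strand. Within the block, GGGCGG was in 34 of 50 promoters of genes lowest in PT replicate 1 and in 17 of 22 of the others. A motif match is a description of the letters in this window and shows no binding.

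Block genes are described next by lists of roles. Of all 82 block genes, 59 (72.0%) were lowest in PT replicate 1, against 22.6% of all protein-coding genes tested. Counts by role rest on the same choice of interval, and differences between roles were not tested. The list of RNA processing and ribosome making held 8 block genes. All of them passed the filter and had their lowest value in PT replicate 1, with deviations from -1.91 to -0.72. Twistnb, a subunit of RNA polymerase I, had the lowest deviation of any block gene with a mean log2 CPM of at least 3 (-1.91), and was at 9.78 CPM in PT replicate 1, against 77., 43.6 and 50.5 CPM in CTC replicates 1, 2 and 3 and 38.5 and 40.6 CPM in PT replicates 2 and 3. Ddx1, an RNA helicase, was at 81.3 CPM in PT replicate 1, against 288, 242 and 228 CPM in CTC replicates 1, 2 and 3 and 212 and 260.5 CPM in PT replicates 2 and 3. For both genes PT replicate 1 lay below each of the other 5 libraries. The mean ± SD of those 5, CTC and PT pooled, was 50.04 ± 15.7 CPM for Twistnb and 246 ± 29.6 CPM for Ddx1. The interval was chosen on PT replicate 1 and Twistnb on its deviation there, so the gap is a description and carries no test. Sf3b6, a subunit of the splicing factor SF3b, was almost level elsewhere, at 29.3 CPM in PT replicate 1, against 85.1 to 97.2 CPM in the other 5 libraries. Rnaseh1, which cuts RNA in RNA and DNA hybrids, was at 4.6 CPM in PT replicate 1, against 14.1 to 21.5 CPM in the other 5 libraries, and Pum2, an RNA-binding repressor of translation, at 98.8 CPM in PT replicate 1, against 199.8 to 334 CPM in the other 5 libraries.

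Of the transcription and chromatin genes, 12 of the 13 that passed the filter lay below the mean of 6 in PT replicate 1 and 11 of 13 were lowest there (median -0.89). Dnmt3a, which sets new DNA methylation, was at 24.4 CPM in PT replicate 1, against 43.9, 50.9 and 50.97 CPM in CTC replicates 1, 2 and 3 and 58.7 and 87.2 CPM in PT replicates 2 and 3. Ncoa1, the steroid receptor coactivator SRC-1, was at 7.02 CPM in PT replicate 1, against 22.5, 17.1 and 30.5 CPM in CTC replicates 1, 2 and 3 and 22.96 and 46.8 CPM in PT replicates 2 and 3, or 25.1% of the mean of the other 5. Both had their highest value in PT replicate 3, so the PT libraries alone spanned the whole range. Asxl2, a chromatin regulator of the Polycomb group, was at 19.2 CPM in PT replicate 1, against 32.1 to 62.1 CPM in the other 5 libraries. Ahr, the ligand-activated aryl hydrocarbon receptor, was at 10.2 CPM in PT replicate 1, against 18.1 to 38.5 CPM in the other 5 libraries, and Hbp1, an HMG-box repressor, at 16.5 CPM in PT replicate 1, against 24.2 to 48.97 CPM in the other 5 libraries. Grhl1, an epithelial transcription factor of the grainyhead family, was at 9.43 CPM in PT replicate 1, against 22.9, 16.4 and 42.8 CPM in CTC replicates 1, 2 and 3 and 11.1 and 21.4 CPM in PT replicates 2 and 3, where PT replicates 1 and 2 lay close to each other. Klf11, a Krüppel-like factor, did not follow its neighbours, at 7.17 CPM in PT replicate 1, against 7.92, 5.09 and 6.45 CPM in CTC replicates 1, 2 and 3 and 8.97 and 8.55 CPM in PT replicates 2 and 3, which places PT replicate 1 inside the range of the others. Hdac9, a class IIa histone deacetylase, was scarce, at 3.48, 0.5002 and 0.0782 CPM in CTC replicates 1, 2 and 3 and 0.46, 0.901 and 0 CPM in PT replicates 1, 2 and 3.

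**Figure D3:**
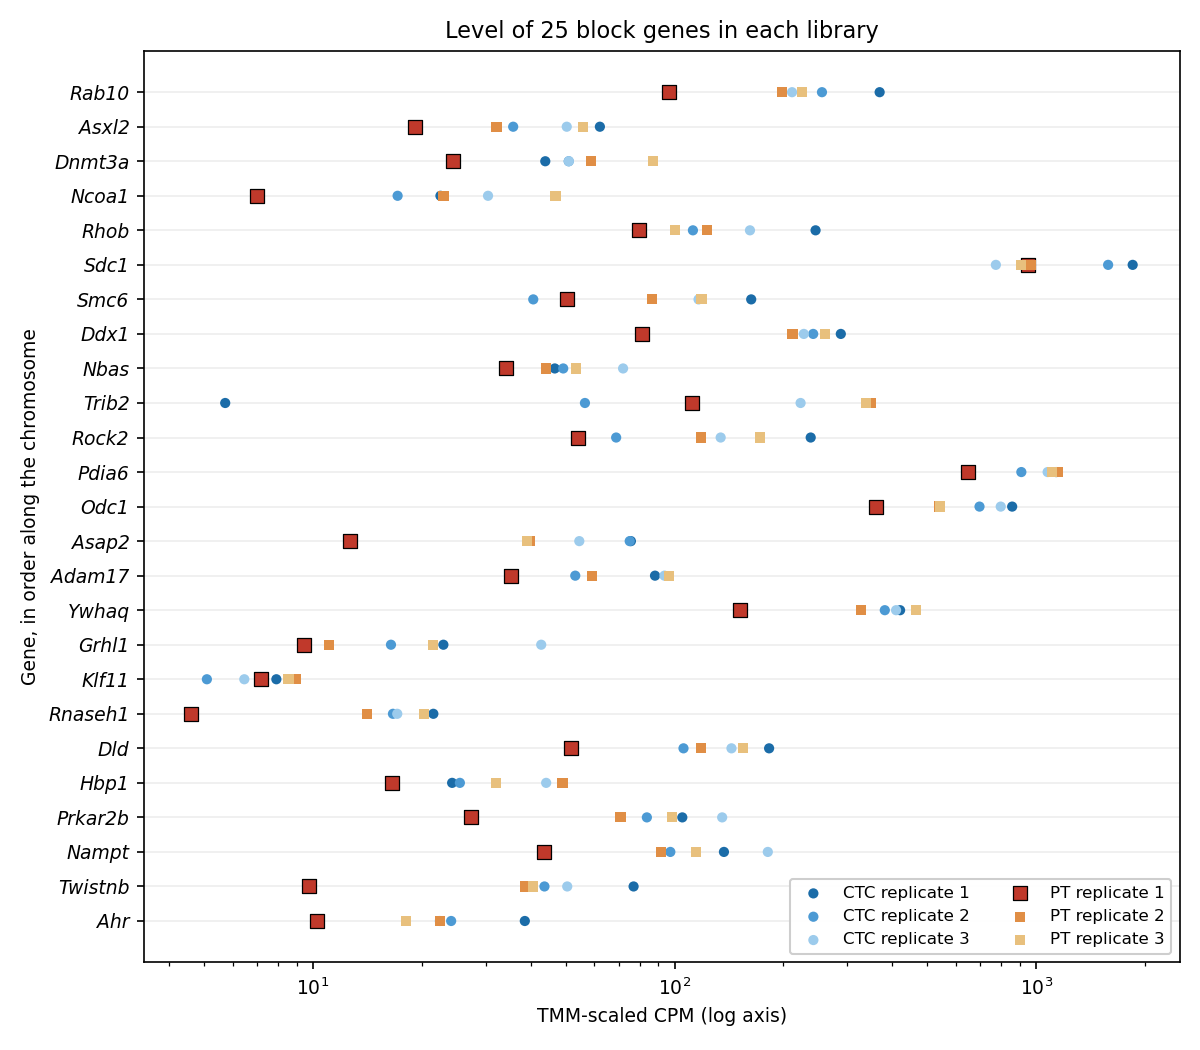
TMM-scaled CPM (log axis) of 25 block genes in each of the 6 libraries, in chromosome order from top to bottom, with CTC as circles and PT as squares. PT replicate 1 (outlined) is the lowest point of most rows; in Sdc1, Smc6, Trib2 and Klf11 it lies among the other libraries.

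In the secretory and trafficking list, 14 of the 15 genes that passed lay below the mean of 6 in PT replicate 1 and 10 of 15 were lowest there (median -0.80). Rab10, a small GTPase of transport to the cell surface, was at 96.7 CPM in PT replicate 1, against 369, 256 and 211 CPM in CTC replicates 1, 2 and 3 and 198 and 226 CPM in PT replicates 2 and 3. Pdia6, a disulfide isomerase of the endoplasmic reticulum and, per length, the second most abundant block gene after Sdc1, was at 647 CPM in PT replicate 1, against 1136, 909.6 and 1075 CPM in CTC replicates 1, 2 and 3 and 1145 and 1108 CPM in PT replicates 2 and 3. Its deviation of -0.61 was smaller than that of Rab10, and the other 5 libraries lay close together. Ubxn2a, an adaptor of the p97 ATPase, was at 8.395 CPM in PT replicate 1, against 23.5 to 54.2 CPM in the other 5 libraries, and Cog5, a Golgi tethering subunit, at 7.25 CPM in PT replicate 1, against 17.6 to 27.7 CPM in the other 5 libraries. Nbas, which acts in transport from the Golgi to the endoplasmic reticulum, was at 34.2 CPM in PT replicate 1, against 44. to 72.02 CPM in the other 5 libraries. Eipr1, which works with the tethering complexes EARP and GARP, was inside the range at 36.7, 50.9 and 34.9 CPM in CTC replicates 1, 2 and 3 and 38.9, 60.01 and 40.4 CPM in PT replicates 1, 2 and 3. Atp6v1c2, a C subunit of the vacuolar proton pump, was at 33.5, 14.1 and 70.1 CPM in CTC replicates 1, 2 and 3 and 33.8, 192 and 192 CPM in PT replicates 1, 2 and 3: it was lowest in CTC replicate 2 and high only in PT replicates 2 and 3.

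Among metabolic and mitochondrial genes, 10 of the 12 that passed lay below the mean of 6 in PT replicate 1 and 9 of 12 were lowest there (median -0.99). Nampt, which makes the NAD precursor nicotinamide mononucleotide, was at 43.4 CPM in PT replicate 1, against 137, 97.3 and 181 CPM in CTC replicates 1, 2 and 3 and 91.7 and 114 CPM in PT replicates 2 and 3. Dld, the dihydrolipoamide dehydrogenase of several mitochondrial complexes, was at 51.6 CPM in PT replicate 1, against 106 to 183 CPM in the other 5 libraries, and Acp1, a low molecular weight phosphatase, at 19.7 CPM in PT replicate 1, against 44.7 to 72.9 CPM in the other 5 libraries. Odc1, the first enzyme of polyamine synthesis, was at 858, 697 and 798 CPM in CTC replicates 1, 2 and 3 and 359.7, 538 and 543 CPM in PT replicates 1, 2 and 3, so every CTC library lay above every PT library and PT replicate 1 was lowest. The exceptions were Lpin1, a phosphatidate phosphatase, at 9.69, 23.5 and 27.97 CPM in CTC replicates 1, 2 and 3 and 19.9, 18.5 and 9.502 CPM in PT replicates 1, 2 and 3, and Pxdn, peroxidasin of the basement membrane. Pxdn was at 194, 124 and 0.313 CPM in CTC replicates 1, 2 and 3 and 27.3, 33.1 and 0 CPM in PT replicates 1, 2 and 3; it was nearly absent from both libraries of replicate 3 and its deviation in PT replicate 1 was 1.55.

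Among signalling and adhesion genes, 17 of the 19 that passed lay below the mean of 6 in PT replicate 1 and 11 of 19 were lowest there (median -0.68). Rock2, a kinase that acts on the actin cytoskeleton, was at 53.9 CPM in PT replicate 1, against 238, 68.9 and 134 CPM in CTC replicates 1, 2 and 3 and 118 and 173 CPM in PT replicates 2 and 3. Asap2, a GTPase activator for Arf proteins, was at 75.7, 75.1 and 54.5 CPM in CTC replicates 1, 2 and 3 and 12.7, 39.7 and 39.01 CPM in PT replicates 1, 2 and 3, in the same order. Ywhaq, the 14-3-3 theta protein, was at 151 CPM in PT replicate 1, against 328 to 464 CPM in the other 5 libraries. Adam17, the protease that sheds ErbB ligands and TNF, was at 35.2 CPM in PT replicate 1, against 53.1 to 96.7 CPM in the other 5 libraries. Prkar2b, a regulatory subunit of protein kinase A, was at 27.4 CPM in PT replicate 1, against 70.9 to 135 CPM in the other 5 libraries, and Rhob, a small GTPase, at 79.7 CPM in PT replicate 1, against 100.4 to 245 CPM in the other 5 libraries. Sdc1, the cell surface proteoglycan syndecan-1 and the most abundant block gene per length, was at 948 CPM in PT replicate 1, against 1848, 1581 and 773 CPM in CTC replicates 1, 2 and 3 and 969 and 906 CPM in PT replicates 2 and 3, and CTC replicate 3 was its lowest library. Trib2, a pseudokinase, was at 5.72, 56.5 and 223 CPM in CTC replicates 1, 2 and 3 and 112, 349 and 339 CPM in PT replicates 1, 2 and 3, with PT replicate 1 above CTC replicates 1 and 2. Adcy3, an adenylyl cyclase, was at 9.05, 7.21 and 27.7 CPM in CTC replicates 1, 2 and 3 and 27.1, 39.8 and 61.3 CPM in PT replicates 1, 2 and 3, and Hpcal1, a calcium sensor, at 61.5, 65.2 and 46.04 CPM in CTC replicates 1, 2 and 3 and 59.96, 82.5 and 75.1 CPM in PT replicates 1, 2 and 3; neither was lowest in PT replicate 1.

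Of 3 DNA repair and segregation genes that passed, all lay below the mean of 6 in PT replicate 1 (median -0.77). Smc6, of the SMC5/6 complex, was at 50.3 CPM in PT replicate 1, against 163, 40.6 and 116 CPM in CTC replicates 1, 2 and 3 and 86.5 and 119 CPM in PT replicates 2 and 3, with its lowest value in CTC replicate 2. Gen1, a resolvase of Holliday junctions, was at 10.04 CPM in PT replicate 1, against 16.4 to 43.9 CPM in the other 5 libraries. The remaining 12 block genes that passed were on no role list, with 11 below the mean of 6 there and a median of -0.76.

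The block genes that did not follow were mostly those that varied among the other libraries. Among 57 genes whose log2 CPM varied by an SD under 0.5 over the other 5 libraries, all 57 lay below the mean of 6 in PT replicate 1, with a median of -1.01, and 51 were lowest there. Among 17 genes with an SD of 0.5 to 1, 16 lay below it (median -0.77) and 8 were lowest. Among the 8 genes with an SD of at least 1, 2 lay below it (median 0.17) and none was lowest there. These 8 were Efr3b, Adcy3, Fam84a, Trib2, Atp6v1c2, Pxdn, Hdac9 and Tspan13. A gene that spreads widely among 5 libraries leaves less room for the remaining one to be lowest, so the counts are not independent of the spread. By level, the median in PT replicate 1 was -0.90 over 32 genes with a mean log2 CPM of 3 to 5, -1.0 over 26 genes of 5 to 6.5, -1.08 over 16 genes above that, and -0.15 over 8 genes under 3. It was -0.95 over 52 plus-strand and -0.81 over 30 minus-strand genes, and -1.0 over the 41 shorter and -0.89 over the 41 longer genes.

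Other genes of the same interval, which the rule did not use, are described next. They lie between ends that were chosen on PT replicate 1, so their values there are not independent of that choice. The 7 left-out protein-coding genes all lay below the mean of 6 in PT replicate 1 (median -1.08). Of these, 6 were lowest there, where 22.6% of all protein-coding genes tested had their lowest value. Lamb1, a laminin chain, was at 106 CPM in PT replicate 1, against 148 to 625 CPM in the other 5 libraries. Rrm2, of ribonucleotide reductase, was at 124 CPM in PT replicate 1, against 223 to 456 CPM in the other 5 libraries, and Id2, an inhibitor of helix-loop-helix factors, at 16.4 CPM in PT replicate 1, against 27.5 to 91.6 CPM in the other 5 libraries. Twist1, a helix-loop-helix factor, was at 32.1 CPM in PT replicate 1, against 51.5 to 91.1 CPM in the other 5 libraries. The interferon-induced genes Rsad2 and Cmpk2 deviated by -1.08 and -1.71 in PT replicate 1 and were highest in CTC replicate 3, at 29.5 and 57.3 CPM. Rps7, a ribosomal protein gene, was at 859 CPM in PT replicate 1, against 971 to 2269.9 CPM in the other 5 libraries.

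Of 29 non-coding genes of the interval that passed the filter, 17 were not annotated as plain processed pseudogenes: they were long non-coding or antisense RNAs, other pseudogenes and 1 unclassified transcript, Gm48210. Gm4804 and Bnip3l-ps, annotated as transcribed processed pseudogenes, were counted among the 17. The 17 genes had a median of -0.94 in PT replicate 1, with 15 of 17 below the mean of 6 and 12 of 17 lowest there. Several were scarce: Gm49326, Gm49331 and Gm49327 were at 0 CPM in PT replicate 1. Gm4755, whose deviation is the median, was at 0.153 CPM there and lowest in CTC replicate 3. Rab10os, antisense to Rab10, was at 9.24 CPM in PT replicate 1, against 14.8 to 21.7 CPM in the other 5 libraries, and Zfp125, a transcribed pseudogene, at 1.303 CPM in PT replicate 1, against 4.07 to 7.74 CPM in the other 5 libraries. The sources do not state strand-specific counting, so reads of Rab10os and Rab10 cannot be told apart. The same limit may apply to 1110002L01Rik, Gm48210 and Gdap10, which start inside Kif3c, Cenpo and Nampt. The other 12 were processed pseudogenes, copies made by reverse transcription of RNA from genes that usually lie elsewhere. Their median in PT replicate 1 was 0.15, with 5 of 12 below the mean of 6 and 1 of 12 lowest there. Of all protein-coding genes tested, 22.6% were lowest in that library. The share over all non-coding genes tested was not worked out, so nothing is read from the counts of either group. Gm4294 was at 37.3, 73.2 and 62.7 CPM in CTC replicates 1, 2 and 3 and 106, 126 and 51.2 CPM in PT replicates 1, 2 and 3, and Gm5182 at 23.3, 25.6 and 22.3 CPM in CTC replicates 1, 2 and 3 and 20.4, 18.1 and 30.2 CPM in PT replicates 1, 2 and 3. Processed copies resemble their parent genes closely and how reads that match both were counted is not known from the sources used here, so their levels are uncertain.

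**Figure D4:**
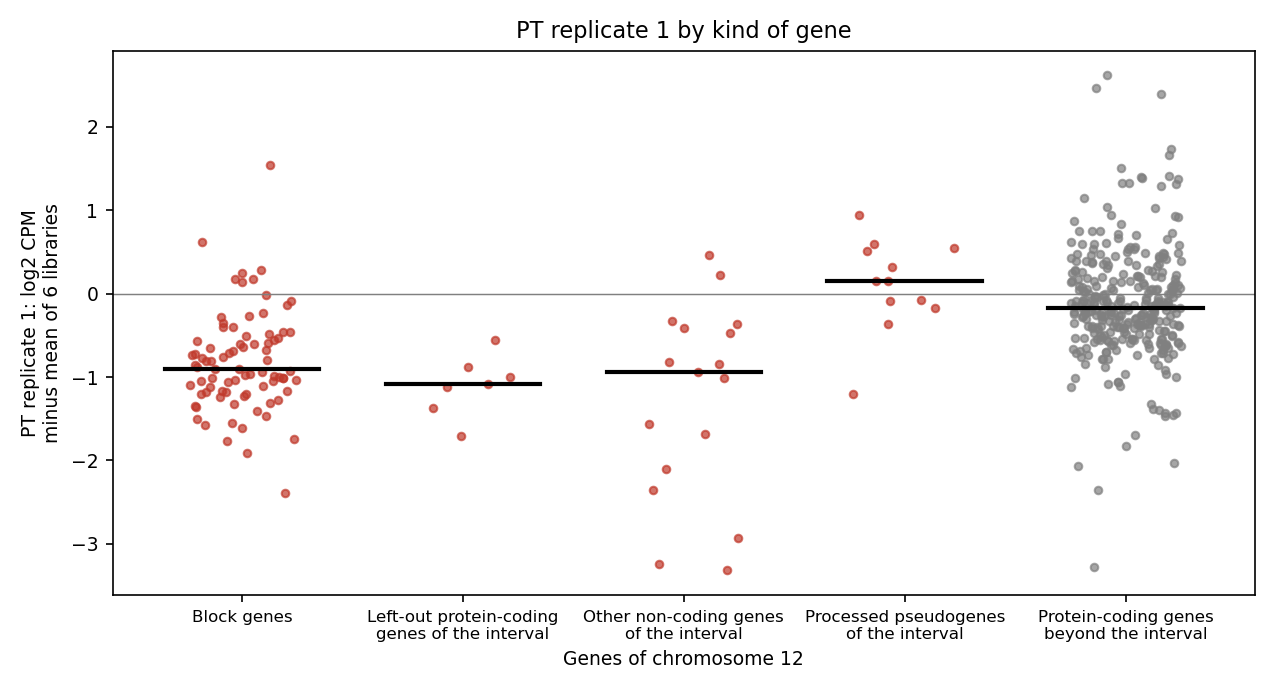
Deviation in PT replicate 1 (log2 CPM minus the mean of 6 libraries) of genes of chromosome 12 by kind: 82 block genes, 7 left-out protein-coding genes, 17 other non-coding genes and 12 processed pseudogenes of the interval, and 322 protein-coding genes beyond it. Black lines are medians, at -0.90, -1.08, -0.94, 0.15 and -0.17.

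The study's own comparison sets CTC against PT. No block gene passed the edgeR quasi-likelihood test after adjustment over 13874 genes, and 0 of all genes (0%) passed; the smallest adjusted p was 0.726 among block genes and 0.611 overall. At an unadjusted p under 0.05, edgeR gave 6 block genes higher in CTC (Odc1, Asap2, Adi1, Gen1, Cbll1 and Atxn7l1) and 2 lower (Atp6v1c2 and Adcy3) of 82, where 3.32% and 3.31% of all genes tested, 919 in all, did so. limma-voom called 0 genes in all. DESeq2, run on all genes with a count and with its own filter, called 91 genes in all. It called 0 of the 82 block genes that passed edgeR's filter, with a smallest adjusted p of 0.225 among them. Its results for the other block genes were not read. The log2 fold change of CTC over PT had a median of 0.40 over the 82 genes and 0.05 over all genes tested, and was positive for 66 of 82, against 54.1% of all genes. For 13 block genes every CTC library was above every PT library and for 0 every CTC library was below, where 5.95% and 6.16% of all genes were so. The rule used all 6 libraries, so these counts are a description too, and the median rested on PT replicate 1: without it the median was 0.13, with 54 of 82 positive, against 0.06 over all genes. Without PT replicate 3 it was 0.70.

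Atxn7l1, related to a subunit of the SAGA complex, had the smallest p of the block genes higher in CTC. It was at 15.4, 9.92 and 13.8 CPM in CTC replicates 1, 2 and 3 and at 4.37, 6.1 and 7.39 CPM in PT replicates 1, 2 and 3. All CTC libraries lay above all PT libraries, with a log2 fold change of 1.13 (SE 0.39; edgeR adjusted p = 0.726). Adcy3, with the smallest p of those lower in CTC, had a log2 fold change of -1.54 (SE 0.58; edgeR adjusted p = 0.726), and CTC replicate 3 lay within the PT range. Without CTC replicate 3 its log2 fold change was -2.4.

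The matched pairs gave unlike values. CTC replicate 1 minus PT replicate 1 had a median of 1.46 log2 CPM over the 82 genes, and 75 genes were higher in CTC replicate 1. For pair 2 the median was 0.03 with 42 of 82 higher in CTC, and for pair 3 it was -0.03 with 39 of 82 higher. Over all protein-coding genes the medians of the 3 pairs were 0.08, 0.00192 and -0.000983. Of these genes, 52.3%, 50.1% and 49.6% were higher in CTC in pairs 1, 2 and 3. The difference between CTC and PT over the block was thus seen in the pair of the first mouse, and the low level of PT replicate 1 was not shared by the cells grown from the blood of that mouse. Pair 1 holds the library on which the interval was chosen, so its values are a description.

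**Figure D5:**
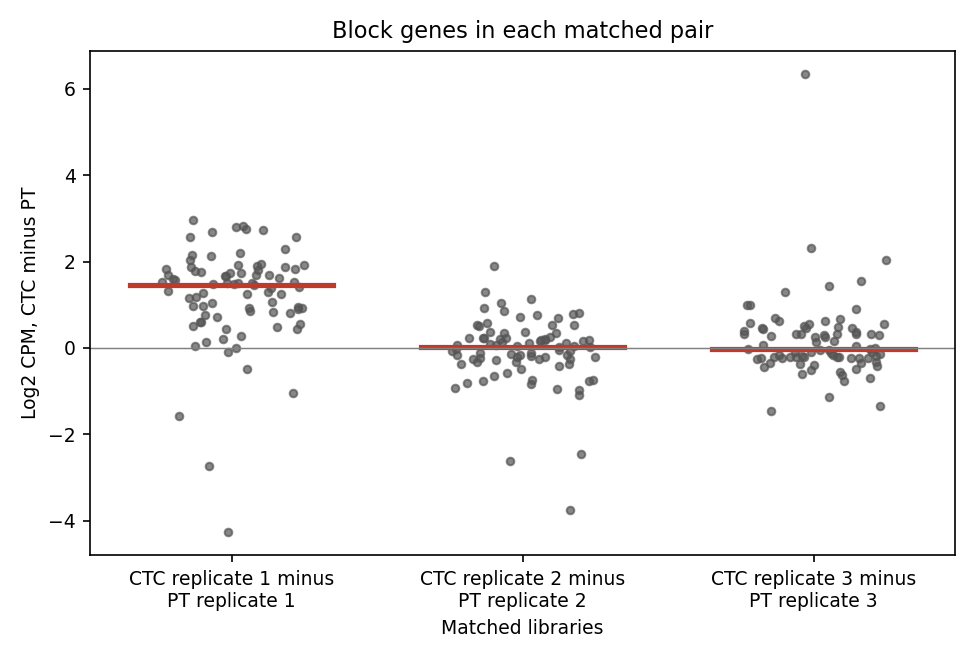
Log2 CPM of CTC minus PT for the 82 block genes in each matched pair of libraries (points), with the median as a line. The medians are 1.46, 0.03 and -0.03 for pairs 1, 2 and 3.

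Outside the interval, 3 genes with a mean log2 CPM of at least 3 had values most like the block's median over the 6 libraries, out of 9329. Ptk2, focal adhesion kinase on chromosome 15 (Pearson r = 0.990, n = 6 libraries), was at 67.4 CPM in PT replicate 1, against 90.95 to 101 CPM in the other 5 libraries. Carmil1, a regulator of actin capping on chromosome 13 (r = 0.988), was at 10.3 CPM in PT replicate 1, against 31.9 to 40.5 CPM in the other 5 libraries, and Tefm, the mitochondrial transcription elongation factor on chromosome 11 (r = 0.982), at 6.63 CPM in PT replicate 1, against 10.5 to 14.7 CPM in the other 5 libraries. The likeness rests on 6 values of which PT replicate 1 is the extreme one, and it is the highest of many, so it is given as a description.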

How the data were processed

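The authors deposited raw read counts per Ensembl gene for 6 libraries, with gene lengths in bases; HISAT2 and the builds GRCm38 and mm10 are named per the submitters' processing notes. Neither the read counter nor the annotation release is stated in the sources at hand. All 127 block genes had the same start and end in GENCODE M21. Counts were filtered with filterByExpr by group (13874 genes, 12019 protein-coding), TMM-scaled and turned into log2 CPM with a prior count of 2; each library was then set against the mean of all 6. CTC was tested against PT with edgeR (version 4.0.16, R 4.3.3; quasi-likelihood, Benjamini-Hochberg over all genes tested, threshold 0.05, SE from the F statistic); limma-voom (3.58.1) and DESeq2 (1.42.0) were alternatives. The steps were tested on simulated data. Counting intervals and floors cover counting error only, since no molecular identifiers are stated.

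Block genes were named by a fixed rule: the 5 lowest and 5 highest deviations in PT replicate 1 at a mean log2 CPM of at least 3, a set of genes with known roles, those at the interval's ends, the left-out genes, the smallest p each way, and the 3 most alike outside. Of the set, Mycn and Agr2 did not pass the filter and Dnajb9 lies outside the interval. Further genes named from role lists, from the next 5 Mb, from the non-coding genes and from counts were chosen after their values were seen. The interval, the members and the lists were chosen with earlier results of these data known. The titles match each PT library to the CTC library of its number, and the series design text places matched samples in the same mice; the deviations of such libraries from their group means correlated across genes at -0.015, 0.157 and 0.298 for replicates 1, 2 and 3.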

Additional observations from a re-analysis of the deposited data

How the results depend on the processing

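The median deviation of the block genes in PT replicate 1 (-0.90) ranged from -0.94 to -0.82 when each other library was left out, and under RLE, upper-quartile and total-count scaling, another prior count, a level minimum, a gene length correction, the other 2 PT libraries as baseline, a shorter interval and with the left-out genes it moved by less than the SD of the medians of the other 5 libraries (0.146). It was -0.70 with no filter on low counts, where genes with few reads enter. It was -1.08 against the median of the other 5 libraries, and -1.46 against the matched CTC library of the pair. The mean of all 6 includes PT replicate 1 itself, and against the mean of the other 5 libraries the median was also -1.08. The matched library, CTC replicate 1, had the highest block median (0.43). The number of genes lowest in PT replicate 1 (59) was between 45 (shorter interval, fewer genes) and 65 (with the left-out genes). For CTC against PT over all genes, the 0 calls of edgeR became 91 with DESeq2 and 199 without a filter on low counts; the cause was not tested. The alternatives were read over the 82 block genes that passed the main filter, or over 111 block genes with no filter on low counts. None of these was called under any of the 13 alternatives. The smallest adjusted p among them ran from 0.0537 (edgeR, no filter on low counts) and 0.167 (edgeR, without CTC replicate 3) upward. With the replicate block it was 0.601, at a median log2 fold change of 0.48. Leaving out each library in turn gave medians from 0.13 to 0.70. Over the 49 genes named by the rule, 51 of 828 values under alternatives moved by more than the spread used and 20 changed sign (in Klf11, Hdac9, Adcy3, Trib2, Pxdn, Etv1, Sdc1 and Tspan13). Limits: PT replicate 1 is 1 library of 1 tumour, so the block has no replicate, and RNA counts show neither DNA copies nor alleles.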

Other observations

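The 45 block genes under the filter were nearly silent in these tumour cells: 16 had no count in any library, Agr2 and Agr3 among them, 34 had under 10 counts over all 6, and the highest total was 54. Mycn, the oncogene of the MYC family, had 9 counts over all 6 libraries. Greb1, an oestrogen-induced gene, had 0, 1 and 8 counts in CTC replicates 1, 2 and 3 and 42, 3 and 0 in PT replicates 1, 2 and 3, so most of its reads came from the library in which the block was low. Fam228b had 25, 10 and 14 counts in CTC replicates 1, 2 and 3 and 0, 1 and 0 in PT replicates 1, 2 and 3. Sox11, a transcription factor, had 28 counts in CTC replicate 1 and at most 7 elsewhere. These genes were named after their counts were seen. They were not in the main comparison of CTC with PT, and their results were read only where no filter on low counts was applied.

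Some block genes were low in both libraries of the third mouse. Pxdn had 0.313 CPM in CTC replicate 3 and 0 in PT replicate 3, against 27.3 to 194.3 CPM in the other 4 libraries. Tspan13, a tetraspanin, was at 4.81 CPM in CTC replicate 3 and 1.74 CPM in PT replicate 3, against 6.82 to 40.9 CPM in the others. Trib2 differed otherwise, with 5.72 CPM in CTC replicate 1, 56.5 CPM in CTC replicate 2 and between 111.9 and 348.8 CPM in the other 4 libraries. These values were noticed in the data and not tested.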
